A study of Mus musculus with 288 samples.

Results

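The genes of the Polycomb repressive complexes described here are 10 named rows of a single-cell RNA read count table with 54230 gene names. They are Ezh1, Ezh2, Eed, Suz12, Jarid2, Mtf2 and Phf19 of Polycomb repressive complex 2 (PRC2) and Rnf2, Ring1 and Pcgf6 of Polycomb repressive complex 1 (PRC1). They were chosen by name, as the core and best known accessory subunits, and all 10 were found in the table. The cells were E14 mouse embryonic stem cells of strain 129/Ola, with no genetic change named in the labels, although D1 stood apart from the other plates in Hprt and Y-linked genes, as given below. D0 cells (0 h) were taken from 2i+LIF medium, in which inhibitors of MEK and GSK3 hold the cells in a ground state of pluripotency. D1 (24 h) and D2 (48 h) cells were taken after that medium had been replaced by serum with LIF. Each label is 1 plate of 96 sorted wells and, as far as the labels show, 1 culture, so time, culture and plate cannot be told apart. Cells of 1 culture are not replicates, so no test between labels was run. The values below are levels with the standard deviation (SD) between cells, shares of cells and ratios.

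Polycomb complexes keep developmental genes silent. PRC2 methylates lysine 27 of histone H3 with EZH2 or its paralogue EZH1 as the enzyme, and needs EED, which binds the mark, and SUZ12, the scaffold. MTF2 and PHF19 are Polycomb-like proteins of the form called PRC2.1, and JARID2 belongs to PRC2.2. PRC1 ubiquitinates histone H2A through RING1B, encoded by Rnf2, or RING1A, encoded by Ring1, joined to 1 of the PCGF proteins, and PCGF6 marks a non-canonical PRC1. Embryonic stem cells are known to use both complexes at CpG-rich promoters of lineage genes.

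Most start sites of the subunit genes lie in CpG-rich windows. RefSeq start sites on GRCm38.p6 gave 12 windows of 300 bases (250 before and 50 after the start) for the 10 genes, with 2 each for Jarid2 and Mtf2. The median window held 27 CpG pairs, against 7 over all 32851 windows of that table. The lowest, the second Mtf2 window, held 2. Ezh2, Suz12 and Phf19 are printed because the largest differences below concern them and because they are the 3 genes with a match to an E2F core (on either strand the letters TTGGCGC, the variant TTCGCGC, the variant TTCCCGC or the variant TTGCCGC), shown in capitals. A match was present in 9.57% of all windows. It is a description of these letters and not a binding site.
Ezh2, chr6:47594981-47595280, minus strand: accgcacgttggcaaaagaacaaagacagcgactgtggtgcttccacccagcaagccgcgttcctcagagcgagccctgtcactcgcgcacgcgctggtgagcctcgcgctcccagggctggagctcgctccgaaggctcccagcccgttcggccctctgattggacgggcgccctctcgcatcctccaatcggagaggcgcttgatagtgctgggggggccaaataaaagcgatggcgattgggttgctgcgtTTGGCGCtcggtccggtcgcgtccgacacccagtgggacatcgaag
Suz12, chr11:79992856-79993155, plus strand: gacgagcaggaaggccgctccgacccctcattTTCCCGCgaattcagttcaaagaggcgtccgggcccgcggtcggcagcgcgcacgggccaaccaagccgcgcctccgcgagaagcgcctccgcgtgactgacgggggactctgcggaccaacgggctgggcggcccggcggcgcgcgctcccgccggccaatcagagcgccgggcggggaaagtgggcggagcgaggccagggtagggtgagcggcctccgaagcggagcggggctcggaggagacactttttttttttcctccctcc
Phf19, chr2:34913927-34914226, minus strand: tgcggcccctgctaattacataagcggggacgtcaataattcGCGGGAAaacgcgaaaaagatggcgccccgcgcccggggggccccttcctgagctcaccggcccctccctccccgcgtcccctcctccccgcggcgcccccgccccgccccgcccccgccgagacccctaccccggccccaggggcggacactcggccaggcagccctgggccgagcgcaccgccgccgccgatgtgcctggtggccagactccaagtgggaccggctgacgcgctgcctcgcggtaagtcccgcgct
The Suz12 window held 41 CpG pairs, that of Phf19 38 and that of Ezh2 31. A GC box (GGGCGG on either strand) occurred 3 times in the Suz12 window, 4 times in that of Phf19 and not in that of Ezh2, while 35.7% of all windows had at least 1. An ETS core (CCGGAAG) and an NRF1 site stretch (GCGCATG), also searched on both strands, matched in 0 of the 12 windows, against 8.86% and 3.91% of all windows.

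Of the 288 wells, 233 had more than 200000 reads on genes, more than 2000 genes and a mitochondrial share under 0.15 of the reads. They were 90 D0, 50 D1 and 93 D2 cells, and 46 of the 55 failed wells were D1. The median cell had 1610758.5 reads in D0, 7956161.5 in D1 and 2162090 in D2. Thinned to 200000 reads, the median D0 cell had a read on 7805.5 genes, the median D1 cell on 8019.5 and the median D2 cell on 3943. All 8 pluripotency markers were detected in every plate, with a summed level of 4962, 6543 and 9626 CPM (reads of a gene scaled to a common total of 1000000 reads on genes) in the median D0, D1 and D2 cell. Dppa5a was the highest of them, with means of 2680, 4483 and 6841 CPM, and the others differed in both directions between labels. Nanog had 489 ± 228 CPM in D0, 67.2 ± 139 in D1 and 268 ± 391 in D2, and Sox2 65 ± 45.5, 57.8 ± 59.8 and 19.6 ± 34.2. Esrrb and Zfp42 were at least 2-fold lower in D1 than in D0, and Zfp42 had a higher mean in D2 (1281 CPM) than in D0 (896). Pou5f1 was 3.04-fold higher in D2 than in D0, Tdgf1 2.18-fold higher in D1, and Utf1 8.88-fold higher in D1 and 5.95-fold in D2. Primitive endoderm markers had a summed median of 0 in all 3 labels, fibroblast markers likewise, and trophectoderm markers one of 25.1, 1.09 and 0 CPM. D1 stood apart from both other plates in a check of 5 genes. Hprt and the Y-linked Ddx3y, Eif2s3y, Kdm5d and Uty summed to a median of 463 CPM in D1 and 0 in D0 and D2, so that in D1 the time, the plate and any difference between the cells cultured cannot be told apart. Whether the D1 cells were of the same subline as the others was not tested. The log2 ratios of the 10 genes, but not their shares, spread or correlations nor the values of other named genes, were also computed with only the D1 cells that had an Hprt read (48) and the D0 and D2 cells that had none (81 and 86).

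The 10 genes differed widely in level. Scaled to the merged exon length of GENCODE vM21, the mean in D0 was highest for Mtf2 (177 ± 73.4 CPM per kb, SD, 90 cells) and Eed (117 ± 65.8). Suz12 (58.3 ± 34.4), Ezh2 (52.1 ± 25.1), Rnf2 (35.2 ± 25.7), Pcgf6 (25.1 ± 21.3) and Jarid2 (18.5 ± 10.7) followed. Ezh1 was lower at 6.09 ± 7.0, Ring1 at 0.58 ± 1.57 and Phf19 at 0.0093 ± 0.079. Neighbours in this order overlapped in the middle 50% of their cells, except that Ezh1 lay apart below Jarid2. With the longest transcript as the length, Suz12 and Ezh2 exchanged places. In D1 Eed came first and Mtf2 second, with overlapping quartiles, and again Ezh1 lay below the 7 genes above it. In D2 the mean order from the top was Mtf2, Eed, Rnf2, Ezh2, Suz12, with Suz12 (12.9), Jarid2 (12.8) and Pcgf6 (12.7) nearly level. With the longest transcript it was Eed, Mtf2, Ezh2, Rnf2, Pcgf6, Jarid2, Suz12. The D2 median of Rnf2 was 0.20 CPM per kb of merged exons, against 13.6 for Ezh2.

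Ezh2 was the catalytic subunit gene read in nearly every cell. Its level ran from 2.24 to 1070 CPM in D0 (median 342), from 5.71 to 1486 in D1 (median 271) and from 0 to 904 in D2 (median 90.5). The ranges of the 3 labels overlapped, but the D2 median lay under the lower quartile of D0 (243) and of D1 (209). The mean was 348 ± 167 CPM in D0, 349 ± 256 in D1 and 145 ± 175 in D2. Between D0 and D1 the log2 ratio of the means was 0.0020, and its sign turned in 5 of 14 alternative ways of computing it. The D2 mean was 2.40-fold below that of D0, a log2 ratio of -1.26 that stayed between -1.34 and -1.04 over the 14 alternatives.

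Ezh1, the paralogue with weaker methyltransferase activity, was read in fewer cells. It ran from 0 to 224 CPM in D0 (median 33.1), to 162 in D1 (median 15.4) and to 425 in D2 (median 0). At equal depth 71.1% of D0, 66% of D1 and 20.4% of D2 cells had a read. The D2 mean of 19.1 ± 63.1 CPM was 2.37-fold below the D0 mean of 45.3 ± 52.1, and 23.9% of the summed D2 level came from 1 cell. The log2 ratio of -1.25 ranged from -1.66 to -0.31 over the alternatives. Per length, Ezh2 made up 93.3% of the pair in the median D0 cell with at least 10 reads on both together, 95.7% in D1 and 100% in D2. It exceeded 50% in 88 of 89 D0, 48 of 49 D1 and 76 of 80 D2 cells. At equal depth 0 cells of any label had Ezh1 without Ezh2. At that depth this allows up to 4.02% of D0, 7.11% of D1 and 3.89% of D2 cells (exact 95% limits, counting error only). At the deposited depth 2 of 93 D2 cells (2.15%, interval 0.26 to 7.55) had Ezh1 reads and none of Ezh2. These were at 0.22 and 0.48 CPM of Ezh1, and 0 D0 and D1 cells had Ezh1 alone.

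**Figure D1:**
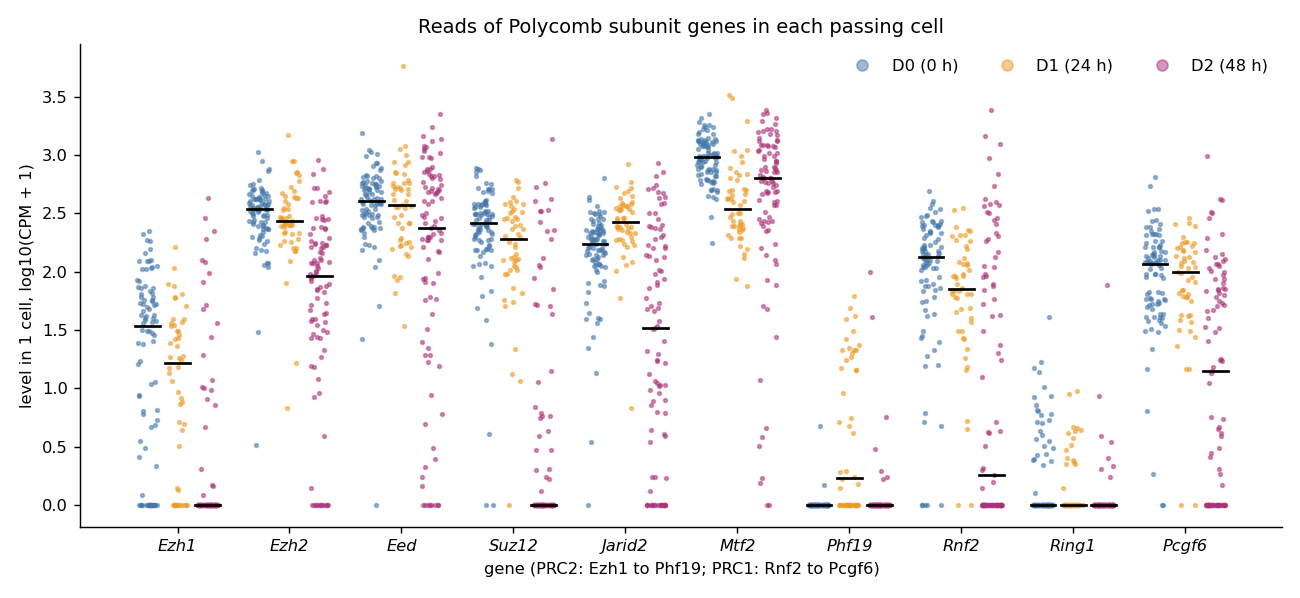
Level of each of the 10 genes in each passing cell as log10(CPM + 1), with D0 in blue, D1 in orange and D2 in purple. A black bar marks the median cell, and it lies at 0 in D2 for Ezh1, Suz12, Phf19 and Ring1.

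Suz12, the scaffold of PRC2, had the largest D2 difference of the 7 members found in at least 90% of D0 cells. Its level ran from 0 to 778 CPM in D0 (median 262), from 0 to 604 in D1 (median 189) and from 0 to 1369 in D2 (median 0). Most D2 cells thus lay below the lower quartile of D0 (180), while a few D2 cells were among the highest of all. The mean was 288 ± 170 CPM in D0, 215 ± 149 in D1 and 64 ± 182 in D2. The D2 mean was 4.51-fold below D0 and 3.35-fold below D1. The log2 ratio of D2 to D0 was -2.17 and stayed between -2.43 and -1.43 over the 14 alternatives. At equal depth 87 of 90 D0 cells (96.7%), 49 of 50 D1 cells (98%) and 25 of 93 D2 cells (26.9%, exact 95% interval 18.2 to 37.1) had a Suz12 read. Without thinning the D2 share was 39.8%. Among the 83 D2 cells with more than 4000 genes it was 27.7% at equal depth. One D2 cell held 23% of the summed D2 level.

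Eed, which encodes the subunit that binds methylated histone H3, shared that pattern only in part. It ran from 0 to 1534 CPM in D0 (median 404), from 33 to 5816 in D1 (median 371) and from 0 to 2233 in D2 (median 235). As with Suz12, the D2 median lay under the lower quartile of D0 (287), but the means differed less. The means were 448 ± 252, 529 ± 813 and 399 ± 444 CPM, and no pair of labels differed by 2-fold. The single D1 cell at 5816 CPM held 22% of the summed D1 level, and without it the log2 ratio of D1 to D0 went from 0.24 to -0.089. At equal depth a read of Eed was present in 98.9% of D0, 100% of D1 and 86% of D2 cells.

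Seen within a cell, the reads of the 3 core genes were therefore split differently in D2 than in the earlier labels. The longest transcript has 4373 bases for Suz12, 2067 for Eed and 2787 for Ezh2. Among genes read in at least 90% of D0 cells, the median log2 ratio of D2 to D0 was -0.92 over 4000 bases. It was -0.11 for those of 2000 to 4000 bases. The part of transcript length in the values of the core genes was not tested. Per length, Suz12 was 25.8% of the Ezh2, Eed and Suz12 sum in the median D0 cell, 20.6% in D1 and 0% in D2, where 54 of 91 cells with at least 10 such reads had none. Eed was 49%, 53.1% and 74.9% of it, and Ezh2 24.5%, 21.4% and 14.3%. With the longest transcript as the length, Suz12 was 16.4%, 12.3% and 0%, and Ezh2 31.8%, 28.3% and 18.4%, so which of the pair was higher in D0 depends on the length used. The D2 cells spread widely, with the middle 50% for Eed reaching from 27% to 92.2%. Reads of all 3 core genes in the same cell at equal depth were seen in 87 of 90 D0, 49 of 50 D1 and 19 of 93 D2 cells (20.4%, interval 12.8 to 30.1). Ezh2 and Eed together were seen in 70 of 93 D2 cells.

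**Figure D2:**
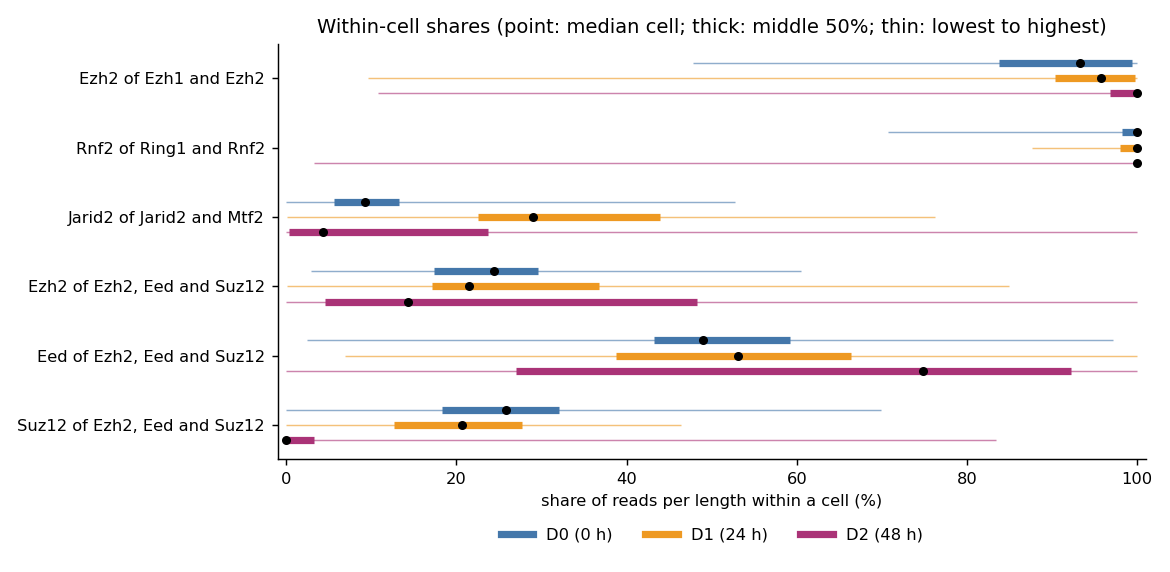
Share of reads per exon length that a gene takes within a cell, in percent, for 2 paralogue pairs, the accessory pair Jarid2 and Mtf2 and the 3 core genes. Points are median cells, thick lines the middle 50% and thin lines the range, and the Suz12 median moves from 25.8% in D0 to 0% in D2.

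Mtf2, which encodes a Polycomb-like protein that binds unmethylated CpG DNA, had the highest mean in D0 of the 10 genes on the CPM scale as well. Its level ran from 175 to 2228 CPM in D0 (median 958), from 73.8 to 3296 in D1 (median 346) and from 0 to 2432 in D2 (median 631). The upper quartile of D1 (585) lay below the lower quartile of D0 (691), although the ranges overlapped. The share of all genes whose quartiles part in this way was not computed. The mean was 1008 ± 418 CPM in D0, 546 ± 638 in D1 and 739 ± 594 in D2. The log2 ratio of D1 to D0 was -0.88, under 2-fold, with a range of -1.14 to -0.63 over the alternatives. That of D2 to D0 was -0.45. Mtf2 had a read in every D0 and D1 cell at equal depth and in 94.6% of D2 cells.

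Jarid2, which encodes the cofactor of PRC2.2, had its highest mean in D1. It ran from 0 to 636 CPM in D0 (median 172), from 5.71 to 839 in D1 (median 264) and from 0 to 850 in D2 (median 31.8). The mean was 180 ± 104, 293 ± 148 and 124 ± 184 CPM. The D1 mean was 1.63-fold above D0, with a log2 ratio of 0.70 that ranged from 0.49 to 1.04, while the quartiles of D0 and D1 overlapped. The D2 mean was 2.36-fold below D1, a log2 ratio of -1.24 that ranged from -2.03 to -0.73. Within a cell, Jarid2 was 9.31% of the Jarid2 and Mtf2 sum per length in the median D0 cell, 29.1% in D1 and 4.34% in D2. The middle 50% of D0 cells (5.66 to 13.2%) and of D1 cells (22.6 to 43.9%) did not overlap. How often other pairs of genes part in this way was not computed.

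Phf19, the other Polycomb-like gene, was almost absent from D0. Only 2 of 90 D0 cells had a read, at 3.75 and 0.47 CPM, and these cells held 8 Phf19 reads in all. In D1, 28 of 50 cells had a read, the median was 0.70 and the highest 60.8 CPM. In D2 7 of 93 cells had a read, the median was 0 and the highest 98.7 CPM. The means were 0.047 ± 0.40, 9.37 ± 14.3 and 1.59 ± 11 CPM. The log2 ratio of D1 to D0 was 7.64, with a counting interval of 6.59 to 8.69, but 88.8% of the summed D0 level came from 1 cell, and with 1 cell left out at a time the ratio reached 10.79. That of D2 to D0 was 5.08, where 66.9% of the summed D2 level came from 1 cell. At equal depth the share with a read was 1.11% in D0 (interval 0.028 to 6.04), 44% in D1 (29.99 to 58.7) and 3.23% in D2 (0.67 to 9.14), so that the D0 and D2 intervals overlapped. Over the 14 alternatives the log2 ratio ranged from 0.12 to 9.75 in D1 over D0 and from 0.017 to 6.48 in D2 over D0, with the lowest values from log-normalized levels. Adding 10 CPM to both means also brought both differences under 2-fold. With cells chosen by their Hprt read the log2 ratio of D1 to D0 was 7.66. Phf19 thus differed in the plate that also stood apart in Hprt and the Y-linked genes, and the part of that plate difference was not tested.

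Of the PRC1 genes, Rnf2, which encodes the main ubiquitin ligase of PRC1, had nearly the same mean in D0 and D2. Its spread was much wider in D2, as it was for genes at large. The SD over the mean was 0.73 in D0 and 2.51 in D2 for Rnf2. Over all genes with a mean of at least 5 CPM its median was 1.16 and 2.89. Rnf2 ran from 0 to 493 CPM in D0 (median 132), to 353 in D1 (median 69.8) and to 2432 in D2 (median 0.81). The mean was 145 ± 106 CPM in D0, 97.7 ± 83.6 in D1 and 137 ± 344 in D2, and 1 cell held 19% of the summed D2 level. D2 cells were therefore both lower and higher than D0 cells, with 45.2% of them holding a read at equal depth against 92.2% of D0 and 92% of D1 cells. D2 cells that did have a read stood at a median of 95.4 CPM, against 137 in such D0 cells. Ring1, the paralogue, was rare. A read was found at equal depth in 16.7% of D0, 10% of D1 and 3.23% of D2 cells, with means of 1.90 ± 5.08, 0.95 ± 1.89 and 1.01 ± 7.96 CPM. Per length, Rnf2 was 100% of the pair in the median cell of each label with at least 10 reads on both genes, and it exceeded 50% in all but 1 of those cells, in D2. Pcgf6, the subunit of the E2F6-containing PRC1, ran from 0 to 647 CPM in D0 (median 116), to 287 in D1 (median 97.4) and to 988 in D2 (median 13.2). Its D2 mean of 63.8 ± 130 CPM was 1.98-fold below the D0 mean of 126 ± 107, just short of 2-fold. The log2 ratio was -0.98, ranged from -1.76 to -0.39 over the alternatives, and was -1.23, past 2-fold, without the D2 cell at 988 CPM that held 16.7% of the summed level. The share of cells with a Pcgf6 read at equal depth was 95.6%, 96% and 57%.

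Counted by direction, in D1 over D0, 1 of the 10 genes was at least 2-fold higher (Phf19) and 0 were 2-fold lower. Among 10255 genes with a mean of at least 5 CPM over the labels, 13.5% were that much higher and 29.8% that much lower. In D2 over D0, 1 gene was at least 2-fold higher (Phf19) and 3 were lower (Ezh1, Ezh2 and Suz12), beside 15.7% higher and 28.4% lower of all genes. In D2 over D1, 0 were higher and 4 were lower (Ezh2, Suz12, Jarid2 and Phf19), beside 21.6% and 19.6%. With cells chosen by their Hprt read, Ezh1 joined the lower genes in D1 over D0 at a log2 ratio of -1.08 (-0.90 with all passing cells), Jarid2 was at 0.78 and Mtf2 at -0.97, and the same 4 genes were lower in D2 than in D1. These counts include Phf19 and Ring1, which are under the 5 CPM limit that the other 8 pass. In D2 over D0, 3 of the 8 that pass were past 2-fold lower, beside 28.4% of the genes that pass and 41.1% of all genes with no limit on level. The median log2 ratio of the 10 genes was -0.34 in D1 over D0, -0.72 in D2 over D0 and -0.56 in D2 over D1, where the median of all genes was -0.36, -0.17 and 0.096. Summing reads over cells moved the median of all genes up by 0.097 in D1 and by 0.0083 in D2, both against D0, and doing so with TMM factors moved it up by 0.31 and 0.28. Relative to the median of all genes, Suz12, Ezh2, Ezh1, Pcgf6 and Mtf2 were lower and Phf19 higher in D2 than in D0 under all 14 alternatives, as 32.3% of all genes were lower and 31.8% higher. In D1 against D0, Ezh1, Mtf2 and Rnf2 were lower and Jarid2 and Phf19 higher under all 14, beside 35.1% and 37% of all genes. These directions are against genes of every length and are not all kept against genes of a like length. Among the genes read in at least 90% of D0 cells, those with a longest transcript over 4000 bases had a median log2 ratio against D0 of -0.84 for D1 and -0.92 for D2, and those of 2000 to 4000 bases one of -0.21 and -0.11. Mtf2, in the longer class, was at -0.88 in D1 over D0, near that median, and at -0.45 in D2 over D0, above it, as was Jarid2 at -0.53. Suz12 stayed below the median of the longer class in D2, and Ezh2 and Pcgf6 below that of the shorter one. Ezh1, with a transcript of 4207 bases, was at -0.90 in D1 over D0, but is not among the genes read in that many D0 cells.

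**Figure D3:**
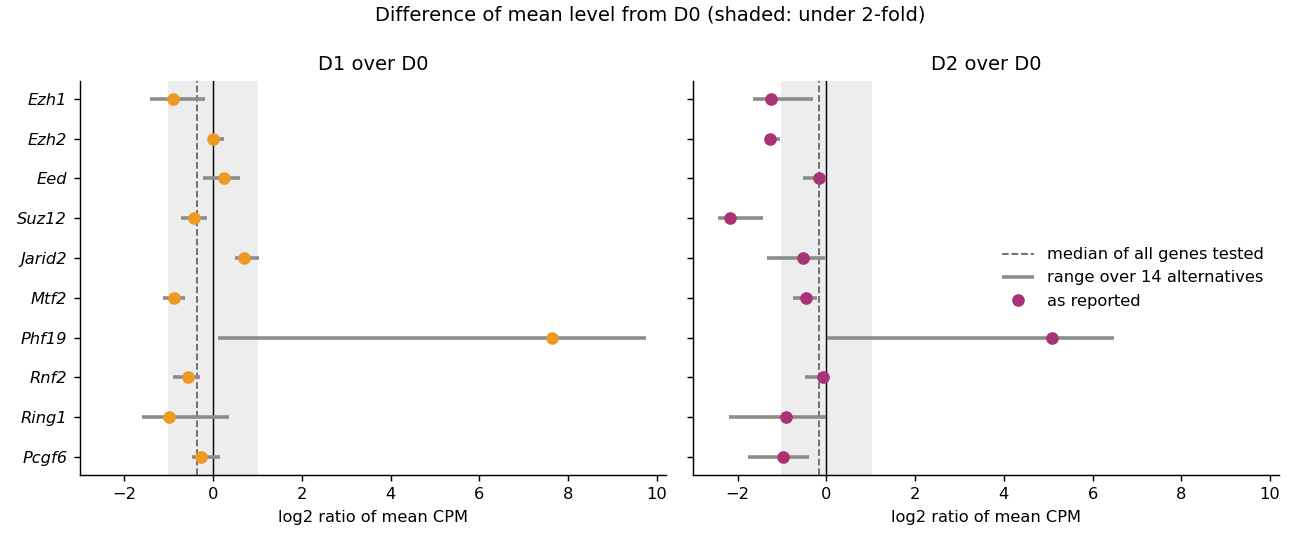
Log2 ratio of mean CPM to D0 for D1 (left) and D2 (right), with the grey line giving the range over 14 alternatives and the dashed line the median of all genes. Phf19 stands apart to the right with the widest range, and Suz12 is the lowest in D2 at -2.17.

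Shares of cells with a read were compared at equal depth. In D1 over D0, 1 gene was over 20 percentage points higher (Phf19) and 0 were lower, beside 11% and 12.4% of all genes. In D2 over D0, 5 of 10 were over 20 points lower (Ezh1, Suz12, Jarid2, Rnf2 and Pcgf6) and 0 higher, but 69% of all genes were lower and 0.878% higher. In D2 over D1, 6 were lower, the same 5 and Phf19, beside 70.6% of all genes, and 0 were higher, beside 0.995%. Among the 3142 genes read in at least 90% of D0 cells, 56.4% were over 20 points lower in D2, as were 4 of the 7 members in that set. A lower share in D2 was thus common to most genes.

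**Figure D4:**
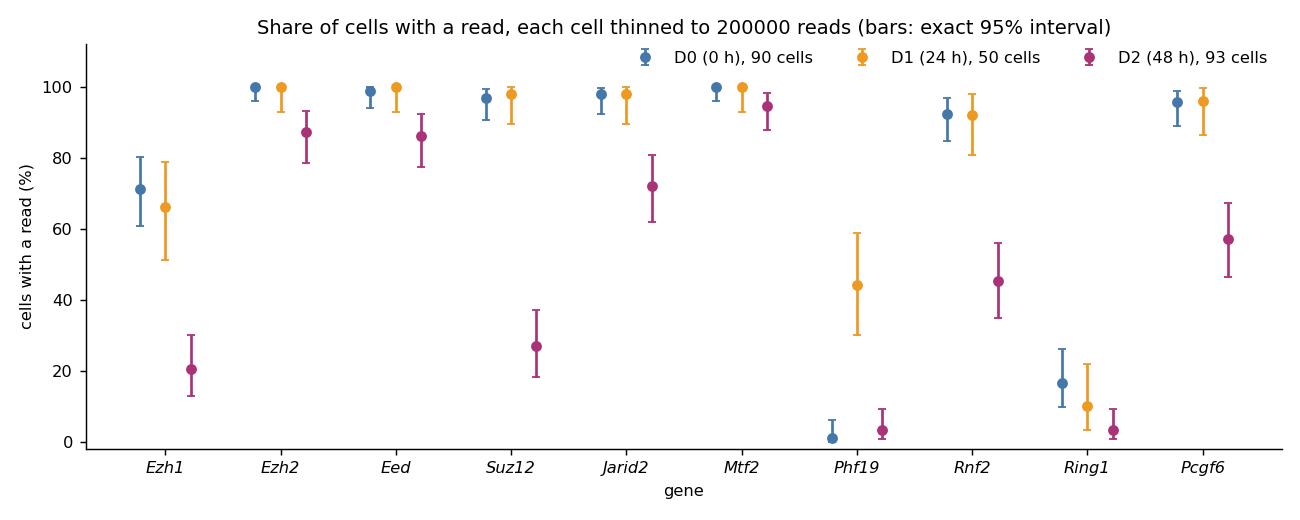
Percent of passing cells with at least 1 read of each gene after thinning each cell to 200000 reads, with exact 95% intervals that cover counting error only. D2 (purple) lies below D0 and D1 for every gene except Phf19, where D1 is highest at 44%.

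Set against genes of a like length, the members fell on both sides. Among the 3142 genes read in at least 90% of D0 cells, the median share of D2 cells with a read was 97.8% for genes with a longest transcript of up to 1000 bases, 87.1% up to 2000, 67.7% up to 4000 and 48.4% beyond. In that longest class of 1012 genes, Mtf2 at 94.6% had a share equal to or above that of 95% of the genes and Jarid2 at 72% equal to or above that of 78%. Suz12 at 26.9% was equal to or above 18.7% of them. In the class of 2000 to 4000 bases, with 1159 genes, Ezh2 (87.1%) and Eed (86%) lay in the upper part of the middle 50%, Pcgf6 (57%) in the lower part and Rnf2 (45.2%) below it. The part of transcript length in the D2 values was not tested.

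**Figure D5:**
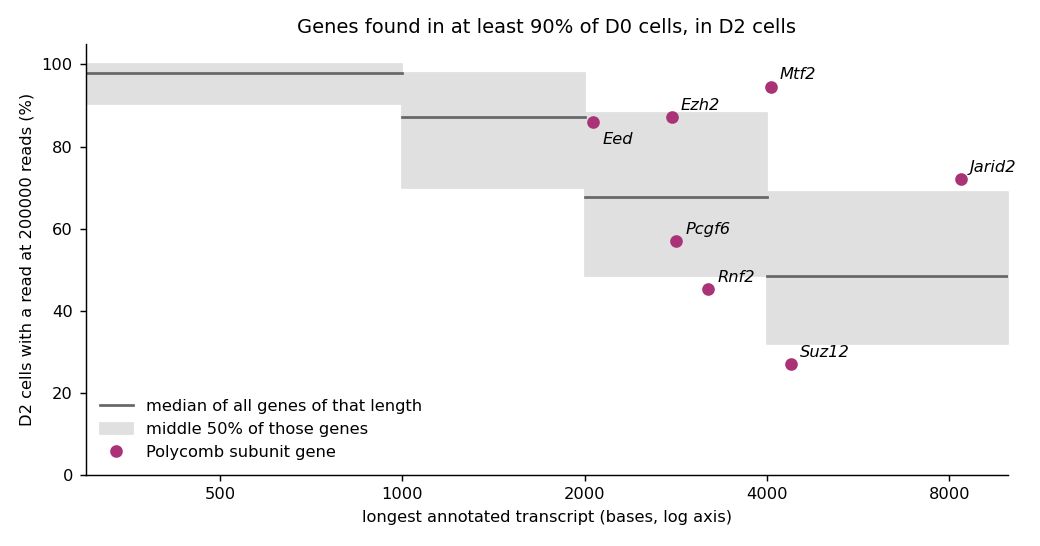
Percent of D2 cells with a read at 200000 reads against the longest annotated transcript in bases (log axis) for the 7 members read in at least 90% of D0 cells. Grey bands give the middle 50% and grey lines the median of all such genes in each length class, with Mtf2 and Jarid2 above and Suz12 and Rnf2 below their bands.

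The spread between cells was read against the coefficient of variation (CV, SD over mean) that genes of the same mean had in that label. In D0 the members with a mean of at least 5 CPM stayed close to that line, from 0.81-fold of it for Jarid2 to 1.08-fold for Eed. In D1 Eed was at 2.96-fold and Mtf2 at 2.28-fold, each with 1 cell that held over 12% of the summed level. In D2 Rnf2 was at 1.56-fold (0.19 on the log10 scale), Suz12 at 1.32-fold (0.12) and Ezh2 at 0.77-fold (-0.12). Genes of D2 with a mean of at least 5 CPM scattered about the line with an SD of 0.22 on that scale. The D2 values of Rnf2, Suz12 and Ezh2 lay within that SD. The median Spearman correlation over the 45 pairs of members was 0.077 in 90 D0 cells, 0.096 in 50 D1 cells and 0.069 in 93 D2 cells, and at equal depth 0.081, 0.022 and 0.039. The highest was 0.27 in D0, 0.58 in D1 (Eed with Pcgf6, 0.53 for the highest at equal depth) and 0.25 in D2. These are descriptions over cells that share a plate. At the deposited depth, the genes whose level was most like that of Ezh2 over D0 cells were Mob1a (0.49), Cul1 (0.47) and N4bp1 (0.42), out of 8691 genes. In the same order the correlations were -0.030, 0.016 and 0.035 in D1 and 0.20, 0.019 and 0.14 in D2. The genes were chosen as the highest in D0, so the D0 values are a description of that choice. At equal depth the 5 most like it were Mob1a (0.47), Scnm1 (0.45), Cul1 (0.44), Gen1 (0.42) and Bcam (0.42), without N4bp1. With the summed level of 10 G2 and M phase genes, Ezh2 had a correlation of 0.22 in D0, 0.44 in D1 and 0.14 in D2. It was the highest of the 10 members in D0 and D1 but not in D2, where Rnf2 had 0.27. For 14 S phase genes the D0, D1 and D2 values of Ezh2 were -0.028, -0.21 and -0.14.

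Further genes of the pathway were taken as a list of 47 other subunits, partners and erasers. In D1 over D0, 7 of the 47 were at least 2-fold higher and 16 lower, beside 13.5% and 29.8% of all genes, and in D2 over D0, 5 were higher and 24 lower, beside 15.7% and 28.4%. Their median log2 ratio was -0.67 and -1.08, against -0.36 and -0.17 over all genes. Of the 47, 38 pass the 5 CPM limit that the genes of this background pass. Of these 38, 4 were higher and 11 lower in D1 over D0, and 4 higher and 20 lower in D2 over D0. The list was not set against genes of a like length. Genes over 4000 bases read in at least 90% of D0 cells had a median log2 ratio of -0.84 in D1 over D0. In D2 over D0 it was -0.92. Of the PRC2 partners, the histone chaperone Rbbp7 had 353 ± 203 CPM in D0, 383 ± 199 in D1 and 506 ± 506 in D2. Its paralogue Rbbp4 had 341 ± 145, 214 ± 101.5 and 161 ± 163 CPM, a D2 mean 2.12-fold below that of D0. Aebp2, a cofactor found with Jarid2, had 102 ± 82.5, 33.2 ± 33.6 and 26.1 ± 82.4 CPM. In D1 over D0 the largest upward ratios of means among those genes of the list that 50% or more of the cells of 1 of the labels had a read of, without thinning, were those of Scmh1 (log2 ratio 2.15), Skp1 (1.97) and Phc1 (1.49), and the largest downward ones those of Bmi1 (-4.06), Rybp (-1.85) and the H3K27 demethylase gene Kdm6a (-1.68). In D2 over D0 the upward ones were Phc1 (2.10), Dcaf7 (1.65) and Pcgf2 (1.63), and the downward ones E2f6 (-5.43), Auts2 (-3.65) and Cbx3 (-2.95). Dcaf7 and Pcgf2 had higher D2 means although fewer D2 cells had a read. At equal depth a Dcaf7 read was found in 83.3% of D0 and 58.1% of D2 cells, and a Pcgf2 read in 55.6% and 25.8%, with 57% of the summed D2 level of Pcgf2 in 1 cell.

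Phc1, a Polyhomeotic subunit of canonical PRC1, was higher in both later labels. Its mean was 93.6 ± 78 CPM in D0, 263 ± 138 in D1 and 403 ± 476 in D2, and 93.3%, 100% and 93.5% of cells had a read at equal depth. Bmi1, which encodes PCGF4, went from 30.9 ± 72.6 CPM in D0 to 1.85 ± 4.51 in D1. Its D2 mean of 5.90 CPM was 3.19-fold above that of D1. E2f6 and Cbx3 encode partners of PCGF6. E2f6 went from 24.1 ± 44.2 CPM in D0 to 0.56 ± 3.16 in D2, and Cbx3 from 128 ± 81.2 to 16.5 ± 22.7. Mga, the DNA-binding scaffold of the same complex, had 496 ± 336 CPM in D0, 175 ± 108 in D1 and 147 ± 335 in D2. L3mbtl2, another partner, had 109 ± 67.9, 269 ± 178 and 181 ± 260 CPM.

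Most genes known as Polycomb targets in embryonic stem cells were rare. Of 30 such developmental and cell cycle regulators, 15 had a read in any D0 cell, 20 in D1, the label of highest depth, and 16 in D2. At equal depth 26 of the 30 were read in under 10% of D0 cells, 24 of D1 and 29 of D2 cells. Of all pairs of target and cell, 5.22% had a read at equal depth in D0, 8.07% in D1 and 2.58% in D2. A lower share in D2 was common to most genes, as given above. Cdkn2a, which encodes cell cycle inhibitors, had the highest mean in each label, with 21.9 ± 19.7, 14 ± 12.4 and 19.1 ± 29.4 CPM. It was not rare, with a read at equal depth in 86.7% of D0, 72% of D1 and 47.3% of D2 cells. In D1 it was followed by Cdkn2b, which encodes another such inhibitor, at 11.2 ± 16.2 CPM and in 42% of cells. In D2 the next was Neurog1, a neuronal regulator, at 10.4 ± 54.8 CPM, with a read in 4 of 93 cells at equal depth.

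All 10 genes are protein-coding, and the 7 PRC2 genes lie on 6 chromosomes. On GRCm38 the annotated spans are chr6:47530139-47595341 for Ezh2, chr11:101191115-101226463 for Ezh1, chr7:89954654-89980983 for Eed and chr11:79993106-80034123 for Suz12. Those of the accessory genes are chr13:44729474-44921643 for Jarid2, chr5:108065674-108109004 for Mtf2 and chr2:34893757-34914026 for Phf19. Rnf2 spans chr1:151458004-151500955, Ring1 chr17:34020792-34024680 and Pcgf6 chr19:47033617-47050906. Exons of Ezh2, Eed, Suz12, Mtf2 and Rnf2 overlap a gene on the other strand, over 2.61 to 6.93% of their exon length. How strand was treated in the counting is not given in the sources used here, so reads in those stretches cannot be assigned with certainty.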

How the data were processed

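The RNA of single cells was sequenced by scNMT-seq, which splits RNA from DNA cell by cell, in wells holding 1 flow-sorted cell each, and no doublet caller was run. The authors deposited raw read counts for each gene in 288 wells, with no normalization applied. The submitters' processing notes name HISAT2 and GRCm38, while the annotation and the counting tool are not given in the sources used here. The sample descriptions speak of a filtered and normalized table, but the values are whole numbers summing to between 2 and 43336922 per well. The limits on cells follow the study's methods, whose mitochondrial limit carries a percent sign in the text. It was read as a share, since under 0.15% of the reads 1 well would be left, and as a share it removed 0 of the 233 cells. The number kept is not the study's own. Gene names occurring on more than 1 row were summed, and 0 columns were left out.

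From these, CPM was computed cell by cell. All cells weigh the same in a mean, no pseudocount was added, and a mean of 0 was set to the floor of 3 reads over a label. Intervals of shares are Clopper-Pearson (exact, 95%) and, like the counting intervals of ratios, cover only counting error. Thinning drew 200000 reads per cell with a fixed seed. Precision of the means is set by the 50 to 93 cells of a label and by their depth of 202157 to 43336922 reads. Called means past 2-fold, read against genes of at least 5 CPM in the mean of the 3 label means. The CV line is a fit of log CV on log mean CPM in each label. Lengths and positions came from GENCODE vM21 on GRCm38, which may not be the annotation the authors used, and sequences from RefSeq on GRCm38.p6. Python 3.11.15, numpy 2.4.6, pandas 2.3.3, scipy 1.17.1 and edgeR 4.0.16 in R 4.3.3 (for TMM factors only) were used. The ratios and the thinning were tested on simulated data.

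Named were the 10 genes, the 3 largest upward and 3 largest downward ratios of the other lists among genes with a read in 50% or more of either label, the 3 Polycomb targets of highest mean in each label (some of which are not reported here), the 5 genes most like Ezh2 over D0 cells (2 without an established symbol are not printed), Hprt and the Y-linked genes. Rbbp7, Rbbp4, Aebp2, Mga, L3mbtl2, the single pluripotency markers and the 5 genes most like Ezh2 at equal depth were named after their values were seen. Members and lists were chosen with earlier results of these data known. The alternatives were other filters on cells, summed reads, TMM and median-of-ratios factors, totals without the 100 highest genes, log-normalized values, pseudocounts, thinning, each side of the plate, other folds, detection limits and lengths, and leaving out each cell. The choice of cells by Hprt was added after the data were seen.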

Additional observations from a re-analysis of the deposited data

How the results depend on the processing

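The median log2 ratio of the 10 genes kept its sign in all 3 comparisons under the alternatives run. In the order D1 over D0, D2 over D0 and D2 over D1 it was -0.15, -0.76 and -0.91 without a filter on cells, -0.28, -0.66 and -0.53 with more than 300000 reads and 3000 genes, -0.31, -0.64 and -0.47 with more than 4000 genes, -0.18, -0.44 and -0.35 on plate columns 1 to 6, and -0.44, -0.92 and -1.01 on plate columns 7 to 12. It was -0.34, -0.53 and -0.51 with cells chosen by Hprt, -0.22, -0.65 and -0.98 with reads summed over cells, -0.0072, -0.37 and -0.91 with TMM factors, and -0.11, -0.42 and -0.85 with median-of-ratios factors. It was -0.24, -0.68 and -0.61 with totals that leave out the 100 highest genes, -0.091, -0.54 and -0.33 with log-normalized values, -0.34, -0.53 and -0.56 with 1 CPM added, -0.18, -0.47 and -0.52 with 10 CPM added, and -0.41, -0.67 and -0.49 with thinned cells. Leaving out 1 cell at a time gave -0.39 to -0.31 in D1 over D0, -0.76 to -0.54 in D2 over D0 and -0.96 to -0.52 in D2 over D1. In D1 over D0 the median of all genes was negative under all 14 alternatives as well, so the kept sign says little there. The 10 genes were above that median on plate columns 1 to 6 (-0.35) and below it on plate columns 7 to 12 (-0.37). In D2 over D0 and in D2 over D1 they were below it under all 14. The number of genes past 2-fold in D1 over D0, 1 as reported, was 0 with 10 CPM added, 2 with over 300000 reads and 3000 genes, with more than 4000 genes, on plate columns 1 to 6, with cells chosen by Hprt, with reads summed over cells and with thinned cells, 3 without a filter on cells and on plate columns 7 to 12, and 5 with a limit of 1.5-fold. Leaving out 1 cell gave 1 to 2. In D2 over D0 it was 2 in place of 4 with log-normalized values, with 10 CPM added and with a limit of 3-fold, and 4 to 5 with 1 cell left out. In D2 over D1 it was 2 in place of 4 with log-normalized values and with a limit of 3-fold, and 4 to 5 with 1 cell left out. With every gene that had a read, the share of all genes past 2-fold higher in D1 over D0 was 26.1% and the share lower in D2 over D1 was 37.2%. The cause of these differences was not tested.

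Of the 420 log2 ratios of single genes under the alternatives, 122 moved by less than their counting error and 298 by more. The sign changed in at least 1 alternative for Ezh2, Eed, Pcgf6 and Ring1 in D1 over D0, Rnf2 in D2 over D0, and Ezh1, Rnf2 and Ring1 in D2 over D1. With 1 cell left out, the log2 ratio of Phf19 lay between 7.47 and 10.79 in D1 over D0 and between 3.50 and 8.23 in D2 over D0, and that of Ring1 in D2 over D1 between -2.34 and 0.34. Of 120 shares of cells under other detection limits or another seed, 10 left the exact interval. The low counts of Phf19 and Ring1 are where depth limits precision most, and with 1 culture for each label no alternative stands in for a replicate. No paired analysis was possible because each label is 1 culture and no test between labels was run.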
